A study of Homo sapiens with 12 samples.

Results

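The interleukin-1 family and inflammasome group holds 10 genes of human THP-1 cells: the ligands IL1A, IL1B and IL18, the receptor antagonist IL1RN, the receptors IL1R1, IL1R2 and IL1RAP, and the inflammasome parts NLRP3, CASP1 and PYCARD. Its members were chosen by symbol, as all probe sets that the platform's gene table gives to 1 of these genes and to no other. There are 25 of them among 49395 probe sets on the array, for 10 of 18132 genes. Another probe set names both CASP1 and CARD16 and is described apart.

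Expression was measured on 12 Affymetrix PrimeView arrays of THP-1, a monocytic leukaemia line that the phorbol ester PMA turns into macrophage-like cells, with 3 arrays in each of 4 groups. All groups share the differentiation with 100 ng/ml PMA for 48 hours. Cells of the first experiment were then kept at the fever-like temperature of 40 °C or at 37 °C; harvests at 2, 8 and 24 hours are described for 40 °C, and which of them was put on arrays is not stated. In the second, the cells titled siRNA and labelled siThermomir, called inhibitor cells below, were compared with cells labelled WT and control. By protocol these were differentiated at 40 °C, received a hairpin that blocks a microRNA by nucleofection together with a GFP plasmid, and after 24 hours were sorted by their GFP. The hairpins named there block miR-142, miR-143 or ThermoMIR-1, with a non-human one as control. The labels do not say which hairpin was used for the arrays or what the control cells received. The titles say siRNA, whereas the protocol describes hairpins. All cells are of 1 line. Nothing states that the 3 arrays of a group are from separate cultures, so the p-values cover only array-to-array spread, which may be technical.

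Interleukin-1 is the prototype fever-inducing cytokine. Both of its forms bind the receptor IL1R1, which signals only after the accessory chain IL1RAP joins it; the antagonist made from IL1RN occupies IL1R1 without signalling, and IL1R2 is a decoy that binds ligand and lacks a signalling tail. In macrophages the sensor NLRP3, the adaptor ASC (gene PYCARD) and the protease caspase-1 (gene CASP1) assemble into the inflammasome, which cuts the inactive precursors of interleukin-1 beta and interleukin-18 into their released forms. Arrays measure the messenger RNAs and not this cutting.

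Values are log2 expression. A difference of 1 on this scale is a doubling, and folds below are ratios of the higher to the lower group computed from mean log2 values. Array medians lay between 5.72 and 5.87, and the correlation across probe sets between arrays of the same group was r = 0.9939 to 0.9984. A probe set was tested when its mean over all 12 arrays reached 4.48, the 30th percentile; 20 of the 25 passed and 5 did not. Calls are from limma with Benjamini-Hochberg adjusted p under 0.05 over the 34507 probe sets tested, and the number of arrays limits the precision. Of 8 macrophage and monocyte markers 7 have a probe set, and all 7 reached the filter in every group. The 6 fibroblast and epithelial markers averaged 3.87 to 4.27 per array, and 2 or 3 of them reached the filter in each group. Averages were 4.97 to 5.60 for 5 lymphocyte markers, of which 3 or 4 reached the filter in each group, and 5.24 to 6.18 for 2 erythroid markers, both of which did. Levels across the experiments are set side by side with no test, because the cells were handled differently.

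At 40 °C the interleukin-1 genes moved in both directions: the antagonist IL1RN and the decoy receptor IL1R2 rose, while the ligand IL1B, the signalling receptor IL1R1 and its partner IL1RAP fell. The largest change was 3.05-fold, for IL1R2, and the others were at most 1.55-fold. The IL1R2 mean at 37 °C, 3.8, lay under the filter value, so the size of its change is uncertain. IL1R2 passed the filter only through the other groups, and the counts of higher members below include it. Among the 20 probe sets tested 6 were higher, or 30%, where 19.8% of all probe sets tested were, and 3 were lower, or 15%, where 17.5% of all were. By gene, with the brightest probe set of each, 3 of 9 tested were higher and 3 lower, where 20.5% of all genes tested were higher and 16.9% lower. The 20 probe sets had a median absolute difference of 0.15, against 0.14 for all. They include 7 sets of CASP1, 6 of them not called, which share their target and are not independent. By gene the median absolute difference was 0.37, against 0.13 for all genes tested. Whether the members differ from the background as a group was not tested, and these shares are no result about them as a group.

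With the inhibitor, transcripts of CASP1, IL18, IL1RN, IL1B and IL1RAP fell and those of IL1R1 and IL1R2 rose, while NLRP3 and PYCARD were not called. IL18 was 3.49-fold lower, IL1R1 2.41-fold higher and CASP1 2.04-fold lower. Of the 20 probe sets tested 12 were lower, or 60%, where 21.8% of all were, and 3 were higher, or 15%, where 21.3% of all were. The 12 include 7 probe sets of CASP1, which share their target and are not independent. By gene, 5 of 9 were lower and 2 higher, where 18.8% of all genes tested were lower and 24.2% higher. The median difference was −0.60 for the 20 probe sets, with the 7 of CASP1 among them, and 0.06 for all 34507. By gene it was −0.36, against 0.09 for all genes tested.

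Control probe sets also differed between inhibitor and control arrays. The 24 probe sets of the poly-A spikes, bacterial RNAs added before labelling, averaged 5.83 ± 0.27 on inhibitor arrays and 7.07 ± 0.35 on control arrays (log2, SD, n = 3 each), and 18S rRNA signal averaged 10.14 ± 0.41 on inhibitor arrays and 12.75 ± 0.14 on control arrays. The signal of 3 prime over 5 prime probe sets, a measure of RNA integrity and labelling, was 2.56 to 2.88 for ACTB on inhibitor arrays and 2.36 to 2.53 on control arrays, and for GAPDH 0.62 to 0.78 on inhibitor arrays and 0.99 to 1.06 on control arrays, with no overlap in either (log2 differences). With a covariate for the mean spike signal per array, none of the 20 member probe sets was called in limma, where 290 of all 34507 (0.84%) were. At an unadjusted p under 0.05 in that fit there were 10 members, 9 lower and 1 higher. The share of all probe sets at that unadjusted threshold was not counted, so the 10 have no background beside them. All 15 called members kept their sign, and the median SE of the 20 was 0.23 with the covariate and 0.08 without it. At 40 °C the spikes differed by 0.09 from 37 °C. The 18S rRNA signal averaged 10.79 ± 0.11 at 40 °C and 11.07 ± 0.17 at 37 °C, and these arrays overlapped. The 3 prime over 5 prime signal differed by 0.03 for ACTB and 0.06 for GAPDH. With the covariate 4 of the 20 members were called for temperature, where 5350 of all 34507 probe sets (15.5%) were. The 4 were IL1B, the brighter IL1RN set, IL1R2 and the brightest IL1RAP set, and their number is no result about the members as a group. Of these, IL1R2 passed the filter only through groups other than 37 °C. Markers of promyelocytes and neutrophils moved too: of 5 genes 4 were tested and all 4 fell in each comparison, and the 5 averaged 6.31 to 6.47 per inhibitor array and 7.89 to 7.98 per control array, and 6.54 to 6.63 per array at 40 °C against 6.99 to 7.07 at 37 °C. Of the 7 macrophage markers 1 was higher and 5 lower with the inhibitor, and 5 were higher and 1 lower at 40 °C. They averaged 9.47 to 9.57 per inhibitor array and 10.15 to 10.20 per control array, and 10.14 to 10.27 at 40 °C against 10.03 to 10.06 at 37 °C. The part of these measures in the results below was not tested. In bulk RNA, fewer cells that express a gene and less RNA per cell cannot be told apart.

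**Figure D1:**
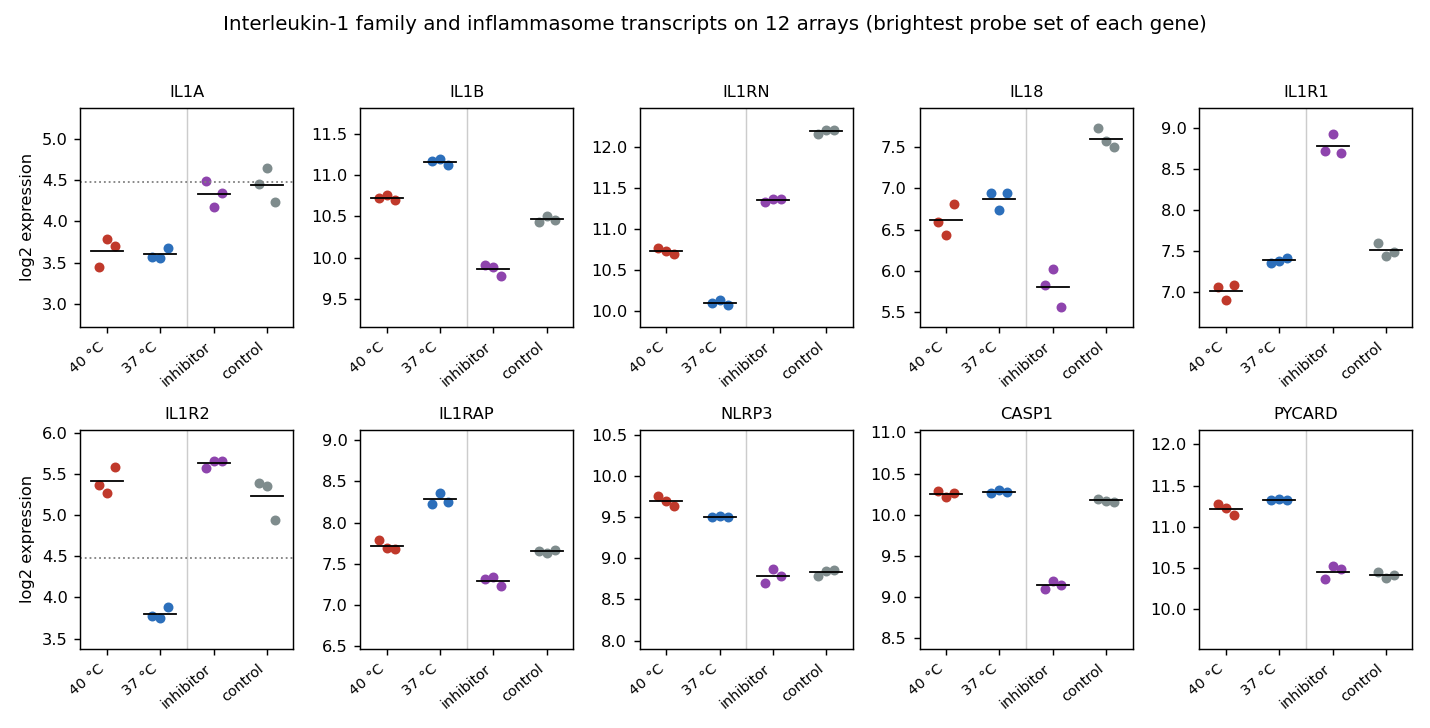
Log2 expression (vertical axis) of the brightest probe set of each of the 10 genes; each point is 1 array, black bars are means of 3 arrays, every panel spans the same log2 range, and the dotted line marks the filter value of 4.48. IL1RN and IL1R2 lie higher at 40 °C than at 37 °C, and CASP1 and IL18 lie lower with the inhibitor than in control cells.

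Among the ligands, IL1B, the main secreted interleukin-1 of macrophages, was abundant in every group (probe set 11719916_at). Its log2 levels were 10.72, 10.76 and 10.70 at 40 °C and 11.17, 11.20 and 11.13 at 37 °C. The groups did not overlap, and IL1B was 1.36-fold lower at 40 °C (difference −0.44, SE 0.05, adjusted p = 0.000306 in limma). With the inhibitor the levels were 9.91, 9.88 and 9.78, against 10.43, 10.51 and 10.46 in control cells. Every inhibitor array lay below every control array, a 1.53-fold decrease (−0.61, SE 0.07, adjusted p = 0.000392 in limma; −0.41 and 0.326 with the spike covariate). Over the 4 groups IL1B ran, from low to high, through inhibitor, control, 40 °C and 37 °C cells, with no overlap between neighbours.

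IL1RN, whose product blocks IL1R1, went the other way at 40 °C (probe set 11719754_s_at). It measured 10.77, 10.74 and 10.70 at 40 °C and 10.10, 10.14 and 10.08 at 37 °C. The 40 °C arrays all lay above the 37 °C arrays, by 1.55-fold (0.63, SE 0.05, adjusted p = 6.48e-05 in limma). With the inhibitor it measured 11.33, 11.37 and 11.37, against 12.16, 12.21 and 12.20 in control cells. Here the inhibitor arrays were the lower ones, by 1.78-fold (−0.83, SE 0.06, adjusted p = 6.56e-05 in limma; −0.81 and 0.106 with the spike covariate). The fainter probe set of the gene, 11740722_a_at, moved the same ways, by 0.34 (SE 0.07) for temperature and −0.59 (SE 0.10) for the inhibitor; with the spike covariate its calls were lost in both comparisons (0.22 and −0.34). The group means of IL1RN spanned 2.08 on the log2 scale and ran, from low to high, through 37 °C, 40 °C, inhibitor and control cells, with no overlap between neighbours. Both transcripts were thus lower with the inhibitor, while at 40 °C they differed in opposite directions.

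The start regions of IL1B and IL1RN are shown because these genes moved in opposite directions at 40 °C and in 1 direction with the inhibitor. Sequences are from RefSeq (GRCh38.p14), where 8 of the 10 genes matched with 15 windows of 300 bases, each from 250 bases before a transcription start to 50 after it. Capitals mark matches, on either strand, to the heat shock element core GAANNTTC or to the AP-1 site TGAGTCA, whose reverse complement is TGACTCA. AP-1 is a factor that PMA activates, and the heat shock element is the site of heat shock factors. The first line is IL1B (chr2:112836730-112837029, minus strand), the next the upstream start of IL1RN (chr2:113117721-113118020, plus strand) and the last a downstream start of IL1RN (chr2:113127348-113127647, plus strand), which holds neither motif.
IL1B: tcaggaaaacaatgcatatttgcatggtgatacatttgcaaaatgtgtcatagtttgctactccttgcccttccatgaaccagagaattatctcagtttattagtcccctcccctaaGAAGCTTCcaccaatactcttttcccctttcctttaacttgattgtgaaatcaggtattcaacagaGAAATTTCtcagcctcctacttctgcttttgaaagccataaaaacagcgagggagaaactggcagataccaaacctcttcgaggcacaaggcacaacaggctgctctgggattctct
IL1RN upstream: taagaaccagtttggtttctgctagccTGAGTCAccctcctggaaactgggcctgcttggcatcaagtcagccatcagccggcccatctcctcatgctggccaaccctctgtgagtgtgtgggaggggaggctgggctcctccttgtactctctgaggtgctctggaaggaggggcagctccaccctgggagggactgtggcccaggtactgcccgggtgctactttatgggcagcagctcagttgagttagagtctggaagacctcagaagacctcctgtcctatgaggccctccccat
IL1RN downstream: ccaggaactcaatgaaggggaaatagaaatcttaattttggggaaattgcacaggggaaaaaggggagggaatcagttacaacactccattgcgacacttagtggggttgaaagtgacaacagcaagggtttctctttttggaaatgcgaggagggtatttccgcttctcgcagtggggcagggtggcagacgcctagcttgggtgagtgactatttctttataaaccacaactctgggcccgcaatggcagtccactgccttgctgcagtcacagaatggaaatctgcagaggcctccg

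The IL1B window held the heat shock core at 2 places, beginning 133 and 67 bases before the start, and none of the other member windows held it. Of all 35116 promoter windows 6.77% had at least 1 match. An AP-1 match lay 223 bases before the upstream IL1RN start, and each of the IL1A windows held 2, in overlapping windows of the same sites; 4.95% of all windows had 1 or more. A loose NF-kB pattern, GGG and CC with any 5 bases between them, occurred in 58.7% of all windows, in each IL1RN window and not in that of IL1B. These are matches of letters only, and the arrays do not say which start was used.

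IL18, a ligand related to interleukin-1 that drives interferon gamma production, had the largest difference of the group with the inhibitor. Its only probe set, 11727092_x_at, is of the kind whose probes can also bind related transcripts, and no other set stands beside it. It read 5.83, 6.02 and 5.56 with the inhibitor and 7.74, 7.58 and 7.50 in control cells. The groups were far apart, and IL18 was 3.49-fold lower (−1.80, SE 0.12, adjusted p = 5.01e-05 in limma; −1.53 and 0.0976 with the spike covariate). At 40 °C it read 6.59, 6.44 and 6.81, against 6.94, 6.74 and 6.95 at 37 °C. These groups overlapped and the difference of −0.26 (SE 0.10, 95% interval −0.50 to −0.03) was not called (adjusted p = 0.0757 in limma), although it was called with trend and robust eBayes (0.029), without replicate 3 at 40 °C (−0.36, 0.0203) and without replicate 2 at 37 °C (−0.33, 0.0483). With the spike covariate its sign turned, with no call (0.07, adjusted p = 0.65).

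IL1A, the membrane-bound and nuclear form of interleukin-1, was faint and was not tested (probe set 11725198_at). It read 3.45, 3.78 and 3.70 at 40 °C and 3.57, 3.55 and 3.68 at 37 °C. With the inhibitor it read 4.49, 4.18 and 4.34, against 4.45, 4.65 and 4.24 in control cells. Within each experiment the groups overlapped, and in every group the mean lay under the filter value. With no filter the differences were 0.04 for temperature and −0.11 for the inhibitor, neither called (adjusted p = 0.795 and 0.545 in limma).

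**Figure D2:**
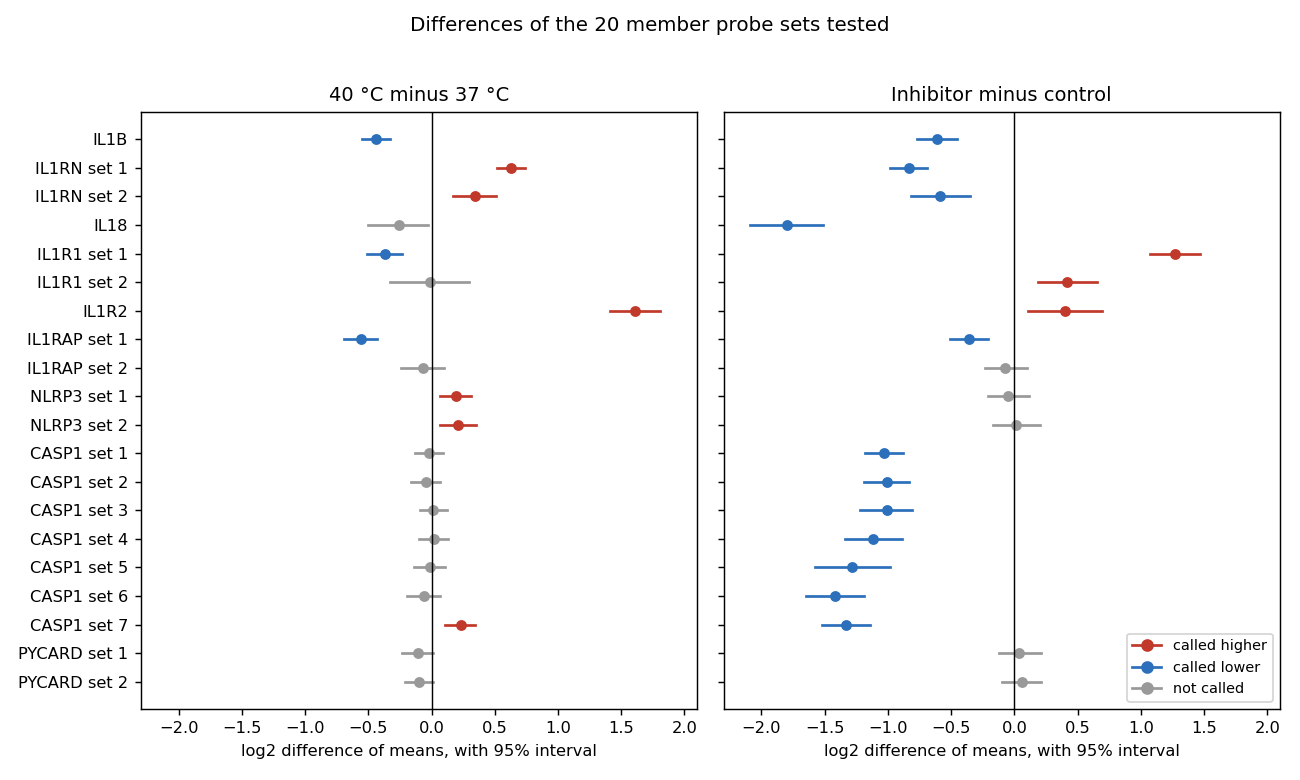
Log2 differences of group means (horizontal axis) with 95% intervals from limma for the 20 member probe sets tested, 40 °C minus 37 °C on the left and inhibitor minus control on the right; sets of 1 gene are numbered from the brightest down. All 7 CASP1 sets lie between −1.42 and −1.01 for the inhibitor, whereas 6 of them were not called for temperature.

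The decoy receptor IL1R2 had the largest difference of the group at 40 °C (probe set 11728500_a_at). It read 5.37, 5.27 and 5.59 at 40 °C, against 3.77, 3.75 and 3.88 at 37 °C. The 40 °C arrays were all higher, by 3.05-fold (1.61, SE 0.09, adjusted p = 1.46e-05 in limma). Since the 37 °C mean of 3.80 lay under the filter value, the probe set passed only through the other groups, and its size at the low end is uncertain. With the inhibitor IL1R2 read 5.57, 5.66 and 5.66, against 5.39, 5.36 and 4.94 in control cells. The groups did not overlap and IL1R2 was 1.32-fold higher (0.40, SE 0.12, adjusted p = 0.0324 in limma). That call was lost without control replicate 3, the lowest array, where the difference was 0.26 (adjusted p = 0.0562), without inhibitor replicate 1, 2 or 3, and with the spike covariate. Without those inhibitor replicates the difference stayed at 0.43, 0.39 and 0.39 (adjusted p = 0.0641, 0.068 and 0.0669), and with the covariate it was 0.53 (0.498).

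The signalling receptor IL1R1 moved against its decoy at 40 °C and with it under the inhibitor (probe set 11718025_at). It read 7.06, 6.90 and 7.09 at 40 °C and 7.36, 7.38 and 7.42 at 37 °C. The 40 °C arrays were all lower, by 1.29-fold (−0.37, SE 0.06, adjusted p = 0.00233 in limma; −0.28 and 0.117 with the spike covariate). With the inhibitor IL1R1 read 8.72, 8.92 and 8.69, against 7.60, 7.44 and 7.49 in control cells. The inhibitor arrays stood clearly above, by 2.41-fold (1.27, SE 0.09, adjusted p = 4.83e-05 in limma; 1.25 and 0.0829 with the spike covariate). Inhibitor cells thus had the highest IL1R1 level of the 4 groups and 40 °C cells the lowest, with no overlap between neighbours. The fainter probe set 11756953_a_at was 1.34-fold higher with the inhibitor (0.42, SE 0.10, adjusted p = 0.0115 in limma; 0.06 and 0.925 with the spike covariate) and differed by −0.01 (SE 0.14) for temperature, where its levels of 3.63 to 4.23 were all under the filter value.

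IL1RAP, the chain that lets IL1R1 signal, fell in both comparisons on its brightest probe set (11729099_a_at). It read 7.79, 7.69 and 7.68 at 40 °C and 8.23, 8.36 and 8.25 at 37 °C. No array overlapped, and IL1RAP was 1.47-fold lower at 40 °C (−0.56, SE 0.06, adjusted p = 0.000249 in limma). With the inhibitor it read 7.31, 7.34 and 7.23, against 7.65, 7.63 and 7.67 in control cells, so that again all arrays of the treated cells were lower. The decrease was 1.28-fold (−0.36, SE 0.07, adjusted p = 0.00345 in limma; −0.30 and 0.49 with the spike covariate). The other tested set, 11729098_a_at, was fainter, at 4.82 to 5.48, and differed by −0.07 in each comparison with no call. Of the remaining sets, which were not tested, 11732585_a_at read lower in both comparisons (−0.43 and −0.38; adjusted p = 0.0182 and 0.00927 in limma with no filter) and 11761995_a_at differed by 0.06 and 0.24 (0.718 and 0.0974).

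Of the inflammasome genes, NLRP3, the sensor, was slightly higher at 40 °C. Its brighter probe set 11738183_a_at read 9.76, 9.70 and 9.63 at 40 °C and 9.50, 9.52 and 9.50 at 37 °C. The arrays did not overlap, but the increase was only 1.14-fold (0.19, SE 0.05, adjusted p = 0.0212 in limma). The other set, 11738523_a_at, was 1.15-fold higher (0.21, SE 0.06, adjusted p = 0.0286 in limma). Leaving out single arrays ended the calls while the differences stayed at 0.16 to 0.19 for the brighter set and 0.17 to 0.21 for the other. For the brighter set the call was lost without replicate 1 or 2 at 40 °C (adjusted p = 0.0557 and 0.0548) and without replicate 1 or 3 at 37 °C (0.0669 and 0.061). For the other set it was lost without replicate 1 or 2 at 40 °C (0.0804 and 0.0888) or without any 1 of the 37 °C arrays (0.0662 to 0.0767), and both were lost with the spike covariate (0.12 and 0.10 on the log2 scale). With the inhibitor NLRP3 read 8.70, 8.87 and 8.78, against 8.78, 8.85 and 8.86 in control cells. These overlapped, and neither set was called, at −0.05 (95% interval −0.21 to 0.12) and 0.01 (−0.17 to 0.20); with array weights the brighter set was called lower (−0.13, adjusted p = 0.0345). Both groups of that experiment lay below both groups of the temperature experiment.

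PYCARD, the adaptor that links NLRP3 to caspase-1, had bright signal in every group and was called in neither comparison. Probe set 11750531_a_at read 11.27, 11.23 and 11.14 at 40 °C and 11.32, 11.33 and 11.32 at 37 °C. The 40 °C arrays were all lower, yet the difference of −0.11 (95% interval −0.23 to 0.01) was not called (adjusted p = 0.138 in limma; 0.0188 with trend and robust eBayes). With the inhibitor it read 10.36, 10.52 and 10.48, against 10.45, 10.37 and 10.41 in control cells, which overlapped (0.04, 95% interval −0.12 to 0.21). The other set, 11721169_a_at, differed by −0.10 for temperature, also called only with trend and robust eBayes (0.0183), and by 0.06 for the inhibitor.

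CASP1, the protease that cuts the interleukin-1 beta and interleukin-18 precursors, has 9 probe sets of its own, of which 7 were tested. The brightest, 11732870_a_at, read 9.10, 9.20 and 9.14 with the inhibitor and 10.19, 10.17 and 10.16 in control cells. All inhibitor arrays were lower, by 2.04-fold (−1.03, SE 0.06, adjusted p = 3.56e-05 in limma; −1.02 and 0.0718 with the spike covariate). The other 6 fell as well, so that the decreases of the 7 ran from 2.01-fold to 2.68-fold, each with an adjusted p of at most 0.000232 in limma, and none was called with the spike covariate. At 40 °C the brightest set read 10.29, 10.22 and 10.26, against 10.26, 10.30 and 10.27 at 37 °C. These overlapped, and the difference of −0.02 had a 95% interval of −0.13 to 0.09. Temperature changed 1 of the 7, the faintest tested set 11763186_at, which was 1.17-fold higher at 40 °C (0.23, SE 0.05, adjusted p = 0.00745 in limma; 0.18 and 0.181 with the spike covariate). The 2 untested sets read at most 3.44.

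CASP1 signal has to be read beside that of CARD16, a protein of the caspase-1 locus that resembles the recruitment domain of caspase-1 and inhibits it. The probe set that names both genes was 1.30-fold higher at 40 °C (0.37, SE 0.05, adjusted p = 0.00071 in limma), at 11.17 on all 3 of the 40 °C arrays against 10.84, 10.81 and 10.74 at 37 °C. CARD16 on its own set was 2.12-fold higher, at 9.69, 9.71 and 9.73 at 40 °C against 8.56, 8.70 and 8.61 at 37 °C (1.09, SE 0.05, adjusted p = 1.21e-05 in limma). At 40 °C CARD16 was thus called and the brightest CASP1 set was not; whether the probe sets differ in response was not tested. With the inhibitor the shared set was 2.61-fold lower, at 9.52, 9.72 and 9.39 with the inhibitor against 10.92, 10.88 and 10.98 in control cells, and CARD16 3.10-fold lower, at 7.63, 7.89 and 7.57 with the inhibitor against 9.42, 9.25 and 9.32 in control cells. In that comparison all of these sets went down. Of the 7 tested CASP1 sets 3 are of the kind whose probes can also bind related transcripts, so how their signal divides between the genes is uncertain.

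**Figure D3:**
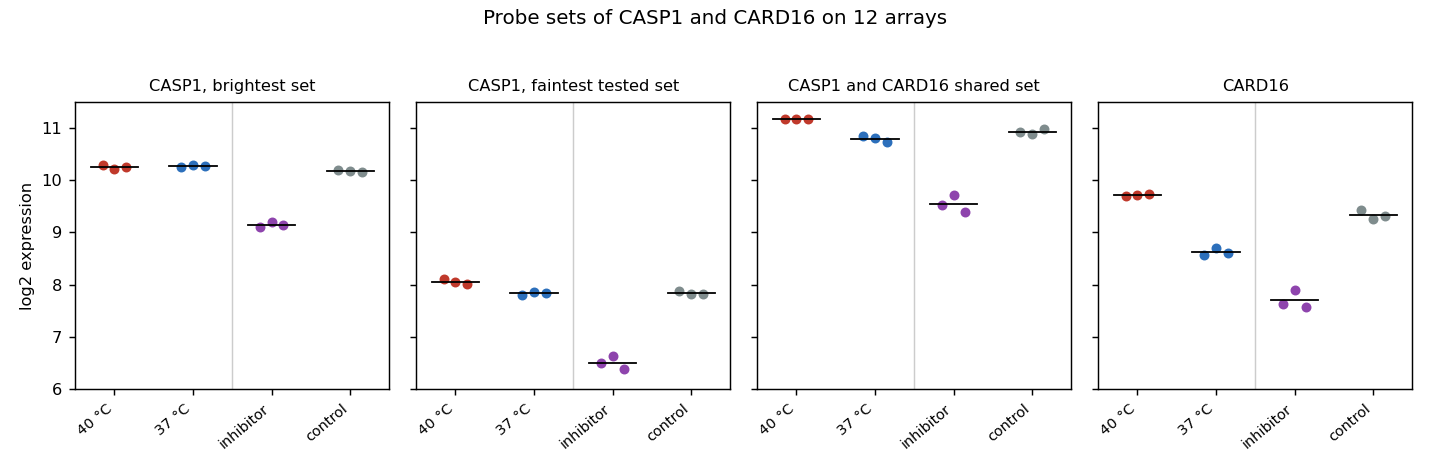
Log2 expression (vertical axis) of the brightest and the faintest tested CASP1 probe sets, of the set that names CASP1 and CARD16, and of CARD16; points are arrays and black bars means of 3 arrays. CARD16 lies 1.09 higher at 40 °C than at 37 °C while the brightest CASP1 set overlaps, and all 4 sets are lower with the inhibitor than in control cells.

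The rest of the pathway was taken from 7 lists of 73 genes, 72 of them with a probe set that names no other gene and 56 bright enough to be tested. At 40 °C 8 of the 56 were higher and 13 lower, with a median difference of −0.02, against 0.01 for all genes tested. With the inhibitor 15 were higher and 12 lower, with a median of 0.06, against 0.09 for all genes. Of all genes tested 20.5% were higher and 16.9% lower at 40 °C, and 24.2% were higher and 18.8% lower with the inhibitor. The same shares stand beside the counts per list below. These counts are no result about the pathway or its lists as groups. Levels below are mean log2 values with the SD over 3 arrays. The related ligands were faint, with 2 of 7 tested (IL36RN and IL37) and neither called in either comparison. Of 7 further receptors 4 were tested, and the 1 called was SIGIRR, a receptor that dampens interleukin-1 signalling, 1.21-fold lower with the inhibitor (7.08 ± 0.05 with inhibitor, 7.36 ± 0.06 in controls; adjusted p = 0.0135 in limma). That call was lost without inhibitor replicate 1 and without control replicate 3 (difference −0.25 in each, highest adjusted p = 0.0629), and the 2 other tested SIGIRR sets were not called.

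Of 15 tested genes that carry the signal from the receptor to NF-kB, 3 fell at 40 °C and none rose: IRAK3, a brake on the receptor kinases, by 1.37-fold (7.68 ± 0.02 at 40 °C, 8.13 ± 0.08 at 37 °C), the kinase subunit CHUK by 1.36-fold (8.20 ± 0.11 at 40 °C, 8.64 ± 0.08 at 37 °C) and TAB3, a partner of the kinase TAK1, by 1.24-fold (7.83 ± 0.03 at 40 °C, 8.15 ± 0.06 at 37 °C). Of 3 other tested IRAK3 sets 1 was called lower, and neither of 2 other TAB3 sets was called. With the inhibitor 6 of the 15 rose and 2 fell. The receptor kinase IRAK1 was 1.64-fold higher (10.63 ± 0.01 with inhibitor, 9.91 ± 0.10 in controls), the NF-kB subunit RELA 1.38-fold higher (9.32 ± 0.06 with inhibitor, 8.86 ± 0.07 in controls) and TAB1, another TAK1 partner, 1.26-fold higher (7.32 ± 0.02 with inhibitor, 6.99 ± 0.03 in controls). The other tested RELA set and the 2 other TAB1 sets were not called. The adaptor MYD88, which every interleukin-1 receptor signal uses, was called in neither comparison (0.11 and 0.12), except with array weights for the inhibitor (0.15, adjusted p = 0.0209).

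Other sensors and adaptors included 10 tested genes, with 1 higher and 3 lower at 40 °C. The DNA sensor AIM2 was 1.31-fold higher (5.90 ± 0.05 at 40 °C, 5.51 ± 0.16 at 37 °C), and NLRP1 and NLRP12, relatives of NLRP3, were 1.23-fold and 1.20-fold lower. With the inhibitor 1 of the 10 was higher and 2 lower. IFI16, an interferon-inducible DNA sensor, was 2.87-fold lower (8.86 ± 0.15 with inhibitor, 10.38 ± 0.06 in controls), NAIP, which detects bacterial flagellin and secretion systems, 2.17-fold higher (5.91 ± 0.10 with inhibitor, 4.79 ± 0.09 in controls) and NLRP12 1.25-fold lower (4.77 ± 0.07 with inhibitor, 5.09 ± 0.06 in controls). The other tested NAIP set was not called.

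Licensing and output genes, 11 of which were tested, had 3 higher and 2 lower at 40 °C. The lysosomal protease CTSB was 1.44-fold higher (13.07 ± 0.07 at 40 °C, 12.54 ± 0.03 at 37 °C) and GSDME, a pore-forming gasdermin, 1.42-fold higher (6.82 ± 0.04 at 40 °C, 6.32 ± 0.03 at 37 °C), whereas NEK7, the kinase that binds NLRP3, was 1.20-fold lower (9.88 ± 0.07 at 40 °C, 10.15 ± 0.02 at 37 °C). With the inhibitor 2 were higher and 4 lower: the channel PANX1 was 1.60-fold higher (9.32 ± 0.10 with inhibitor, 8.64 ± 0.11 in controls), GSDME 1.59-fold lower (7.60 ± 0.12 with inhibitor, 8.27 ± 0.06 in controls) and TXNIP, a thioredoxin-binding protein, 1.49-fold lower (10.40 ± 0.02 with inhibitor, 10.98 ± 0.07 in controls). Of 3 tested genes on the list of CARD, pyrin and serpin proteins, CARD16 and CARD8 were higher and SERPINB1 was lower at 40 °C. CARD8 was 1.41-fold higher (9.19 ± 0.03 at 40 °C, 8.69 ± 0.09 at 37 °C), although of its 9 other tested sets 5 were called higher and 3 lower, and SERPINB1 was 1.68-fold lower (9.60 ± 0.06 at 40 °C, 10.35 ± 0.03 at 37 °C). With the inhibitor SERPINB1 was 1.36-fold lower (8.93 ± 0.01 with inhibitor, 9.38 ± 0.04 in controls).

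Genes that interleukin-1 can induce were the last list. With the inhibitor 6 of 11 tested rose and 1 fell, with a median difference of 0.64: the chemokine CXCL8 was 2.30-fold higher (9.42 ± 0.12 with inhibitor, 8.22 ± 0.03 in controls), NFKBIZ, a nuclear regulator of NF-kB targets, 1.83-fold higher (8.27 ± 0.10 with inhibitor, 7.40 ± 0.02 in controls), and ZC3H12A, a ribonuclease that degrades cytokine transcripts, 1.77-fold higher (7.69 ± 0.02 with inhibitor, 6.87 ± 0.12 in controls). At 40 °C 2 rose and 4 fell. CXCL8 was 3.00-fold lower (5.52 ± 0.25 at 40 °C, 7.10 ± 0.09 at 37 °C) and PTGS2, an enzyme of prostaglandin synthesis, 1.65-fold lower (7.25 ± 0.06 at 40 °C, 7.97 ± 0.04 at 37 °C), while the adhesion molecule ICAM1 was 1.59-fold higher (8.49 ± 0.08 at 40 °C, 7.82 ± 0.15 at 37 °C), and 1 of 2 other tested ICAM1 sets was called higher. All pathway genes named here were called in limma, MYD88, IL36RN, IL37 and IL6 apart. No pathway gene was called for the inhibitor with the spike covariate. At an unadjusted p under 0.05 in limma 10 were higher and 6 lower, with no share of all genes counted at that threshold. For temperature the covariate ended the calls of CHUK (−0.41, adjusted p = 0.0775), NEK7, AIM2, NLRP1, NLRP12, IFI16, TXNIP, PANX1 and ZC3H12A. It added IL6, a cytokine that interleukin-1 induces (0.53, adjusted p = 0.0301). The temperature calls of IFI16, TXNIP, PANX1 and ZC3H12A were also lost when certain single arrays were left out.

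**Figure D4:**
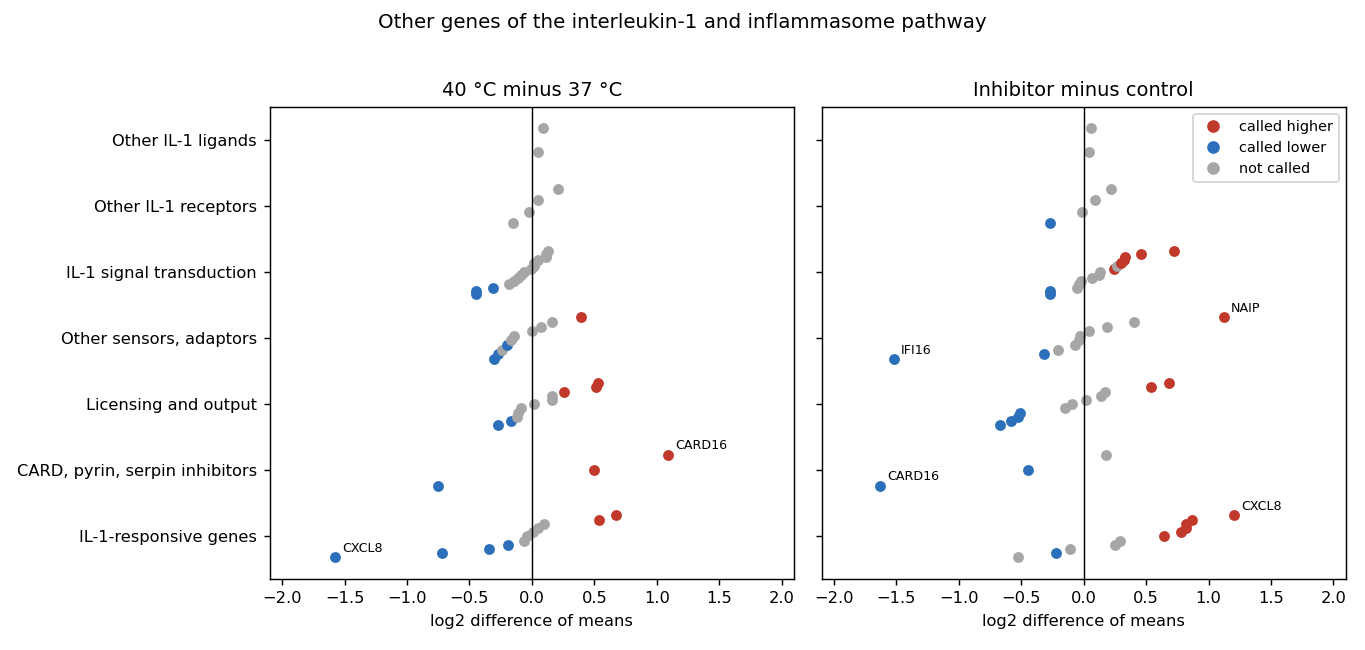
Log2 differences of group means (horizontal axis) of the 56 tested pathway genes by list, 40 °C minus 37 °C on the left and inhibitor minus control on the right, with 1 point per gene coloured by its call. Genes past 0.9 are named: CXCL8 and CARD16 lie on opposite sides in the panels, and IFI16 and NAIP stand out for the inhibitor.

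Over the 4 groups, the genes whose levels ran most like those of IL1B were CBR4, PCDHB6, GABRD and C5orf34, with root mean square distances of 0.0308, 0.039, 0.0434 and 0.0555 between centred group means on the log2 scale, among 13908 genes compared. Those most like IL1RN were STX11 (0.0573), GSDME (0.0717), RTN4R (0.0883) and PLEK (0.109). GSDME, which forms pores downstream of caspases, is the only 1 of these 8 in the pathway lists. The measure rests on 4 group means and carries no test.

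The remaining orders of the group means were as follows, from low to high. IL18 ran through inhibitor, 40 °C, 37 °C and control cells, and of these neighbours only the 40 °C and 37 °C arrays overlapped. IL1R2 ran through 37 °C, control, 40 °C and inhibitor cells, with 37 °C cells alone clear of the neighbouring group. IL1RAP took the same order as IL1B, with no overlap. NLRP3 ran through inhibitor, control, 37 °C and 40 °C cells and PYCARD through control, inhibitor, 40 °C and 37 °C cells, each with overlap between inhibitor and control arrays only. CASP1 ran through inhibitor, control, 40 °C and 37 °C cells, with overlap between the 40 °C and 37 °C arrays only. IL1A ran through 37 °C, 40 °C, inhibitor and control cells, with overlap within each experiment. The range of the group means was 1.80 for IL18, 1.83 for IL1R2, 1.76 for IL1R1, 1.31 for IL1B and 1.13 for CASP1, and under 1 for IL1RAP (0.99), NLRP3 (0.91), PYCARD (0.91) and IL1A (0.85), all on the log2 scale.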

How the data were processed

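RNA of 12 arrays in 4 groups of 3 was analysed, grouped by the titles. The authors' deposited table holds log2 expression of 49395 probe sets; the unit was read from the values, while background correction, normalization and software are not stated in what was used here. Biotin-labelled total RNA was put on PrimeView arrays, per the labels' protocols. Gene names come from the platform's table, and 102 control probe sets were left out of all tests.

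Each comparison was fitted on its own 6 arrays in R 4.3.3 by limma 3.58.1 (two-sided tests from lmFit and eBayes, with no block) over the 34507 probe sets with a mean of at least 4.48 (30th percentile), with Benjamini-Hochberg adjustment over all of them and calls under 0.05. The fits had 4 residual degrees of freedom, and eBayes added 3.89 for temperature and 3.61 for the inhibitor. An exact permutation test of 3 arrays against 3 cannot go below p = 0.1, so none was run. The fit was tested on simulated data. A gene is represented by its probe set of 1 symbol with the highest mean. Named pathway genes are, per list and comparison, up to 3 called genes with the largest differences whose groups do not overlap; MYD88, IL36RN, IL37 and IL6 were named after their values were seen. Genes like IL1B and IL1RN are the 4 closest in centred group means. The members, lists and alternatives were chosen with earlier results of these data known. Protein stretches that were planned are not used here. Promoters were searched and figures drawn with Python 3.11.15 and matplotlib 3.10.9.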

Additional observations from a re-analysis of the deposited data

How the results depend on the processing

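Of 306 values of member probe sets under the alternatives for temperature 286 kept their side of the threshold, 14 lost the call and 6 gained one; for the inhibitor 286 kept it, 19 lost the call and 1 gained one, and in neither comparison was a called member reversed, although differences that were not called changed sign in some settings. The counts of member probe sets changed as follows. With 1 probe set per gene, fewer sets are tested, and 3 were higher at 40 °C, while 5 were lower with the inhibitor. The 50th percentile filter left 1 higher with the inhibitor. With trend and robust eBayes 6 were lower at 40 °C. With the spike covariate 2 members were higher at 40 °C, with 6 pathway genes lower. For the inhibitor 0 members and 0 pathway genes were called in either direction in limma. At an unadjusted p under 0.05 in limma there were 10 members, and 10 higher and 6 lower pathway genes. No share of all probe sets was counted at that threshold. Spike level and group go together in that experiment and cannot be told apart. Array weights gave 25 pathway genes higher with the inhibitor and turned IL18RAP to 0.28 (adjusted p = 0.0292), against −0.01 and no call. Apart from the spike covariate, no share of all probe sets called stands beside the counts under the alternatives of this section. They are therefore no result about the members or the pathway as a group. The cause of these changes was not tested.

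With the replicate number as a block, 6 member probe sets were higher and 4 lower at 40 °C, and 3 higher and 12 lower with the inhibitor; IL18 was called lower at 40 °C (adjusted p = 0.0236) and the SIGIRR call was lost (0.0654). Deviations of same-numbered arrays correlated at −0.08, −0.06 and 0.21 for temperature and −0.08, −0.54 and −0.08 for the inhibitor. Deviations from a mean of only 3 arrays cannot settle whether the numbers pair the arrays, and no label says that they do. Leaving out 1 array in turn gave 4 to 6 higher and 3 to 4 lower members at 40 °C, and 2 to 3 higher and 12 lower with the inhibitor. Quantile normalization and centring moved the median difference by at most 0.011. Levels near the filter value, as of IL1A and of IL1R2 at 37 °C, limit what the arrays show.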
